A study of Homo sapiens with 10 samples.

Results

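Described here are 10 genes of death receptor signalling or of apoptosis control, of which PTPN13 and ASAH1 have been described as targets of IRF8. They are FAS, FADD, CASP8, CFLAR, TNFRSF1A, TNFRSF10A, TNFRSF10B, TNFSF10, PTPN13 and ASAH1. They were chosen by symbol, with earlier results of these data known, and their rows were read from the 19590 genes of the deposited expression table. MV4-11 is an established human cell line of acute myeloid leukaemia (AML), and expression was compared between 4 Control libraries and 4 IRF8 KO libraries. Per the study's methods, Control cells carried the lentiviral CRISPR vector without knockout of IRF8, and IRF8 KO cells were clones grown out by limiting dilution after infection with a vector carrying a guide RNA against IRF8. The sources used here do not say which clone each IRF8 KO library came from, and no drug, ligand or other treatment is named for either group. Nothing in the labels says that replicates came from separate cultures, so p-values measure the spread between these libraries, which may be technical.

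Death receptors are cell surface receptors of the tumour necrosis factor (TNF) receptor family that carry a death domain inside the cell. Binding of a ligand such as Fas ligand or TRAIL (encoded by TNFSF10) lets the receptor recruit the adaptor FADD and the initiator caspase CASP8, which is activated there, while the caspase-like protein c-FLIP (encoded by CFLAR) competes with it. IRF8 is a transcription factor of the interferon regulatory factor family that directs myeloid differentiation, and in myeloid leukaemia cells it has been described as a repressor of the Fas-associated phosphatase gene PTPN13 and of the acid ceramidase gene ASAH1.

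Between 39560072 and 65519047 reads were counted per library, and values are normalized counts, read counts divided by a size factor for each library. In these libraries 1 read was worth between 0.80 and 1.35 normalized counts. IRF8 itself was at 36891, 15192, 43016 and 22535 normalized counts in Control replicates 1 to 4 and at 6377, 2401, 12903 and 7820 in IRF8 KO replicates 1 to 4. The groups did not overlap, and the IRF8 KO mean was 25.1% of the Control mean (log2 fold change -2.11, SE 0.51, limma adjusted p = 0.022). The call was lost without Control replicate 1, Control replicate 3 or IRF8 KO replicate 1 (adjusted p of at most 0.058). All 9 listed myeloid marker genes were above 10 normalized counts in at least 1 library, and their sum ran from 77434 to 88945 in Control and from 98523 to 332644 in IRF8 KO. The lysozyme gene LYZ alone gave 248604 of the sum in IRF8 KO replicate 1 and 13767 to 39385 in the other IRF8 KO libraries. LYZ was not called (limma adjusted p = 0.06). Of the 9 markers 2 were called (22.2%, against 18.2% of all genes tested), both higher. MPO ran from 712.5 to 822.9 in Control and from 8974 to 18443 in IRF8 KO, and ITGAM from 62.1 to 112.0 and from 406.0 to 1152. Log2 fold changes were above 0 for 6 of the 9 and below 0 for 3. Of the 3 B cell markers MS4A1 was at 0 in every library, and their sum ran from 177.2 to 491.7 in Control and from 167.3 to 919.5 in IRF8 KO. The summed T cell markers reached at most 1.0 and the summed erythroid markers at most 6.6 normalized counts. Summed fibroblast and epithelial markers ran from 993.3 to 3200 in Control and from 62.9 to 253.2 in IRF8 KO, nearly all of it KRT8, a keratin gene (972.9 to 3187 and 55.4 to 232.9). The part that these marker differences had in the results was not tested.

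Of the 10 genes, CASP8 and TNFRSF10A were higher in IRF8 KO cells at a limma adjusted p below 0.05, and none was lower. In bulk RNA, fewer cells of a type and less RNA per cell cannot be told apart. The count is 2 of 10 higher, where 8.65% of the 13110 genes tested were called higher, and 0 of 10 lower, where 9.56% were called lower. Calls in either direction made up 18.2% of all genes tested. At an unadjusted limma p below 0.05, 4 of the 10 genes were higher (also FAS and TNFRSF1A), against 15.6% of all genes tested, and 1 was lower (TNFRSF10B), against 16.0%. On the recovered reads, edgeR called none of the 10 lower, against 9.2% of all genes tested. DESeq2 called the same 4 higher, against 12.8% of all genes tested, and 1 lower, again TNFRSF10B, against 13.1%. The values of the groups did not overlap in 3 of the 10 genes, CASP8, TNFRSF10A and TNFRSF1A, against 25.3% of all genes tested. The median log2 fold change of the 10 genes was 0.38, and that of all genes tested was -0.001. The study called genes at an at least 2-fold change and a p-value below 0.01 from DESeq2. Applied here to unadjusted limma p-values, these thresholds called none of the 10 genes, against 10.9% of all genes tested. They were not applied to the DESeq2 fit, in which TNFRSF10B had a log2 fold change of -1.16 (DESeq2 adjusted p = 0.02).

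**Figure D1:**
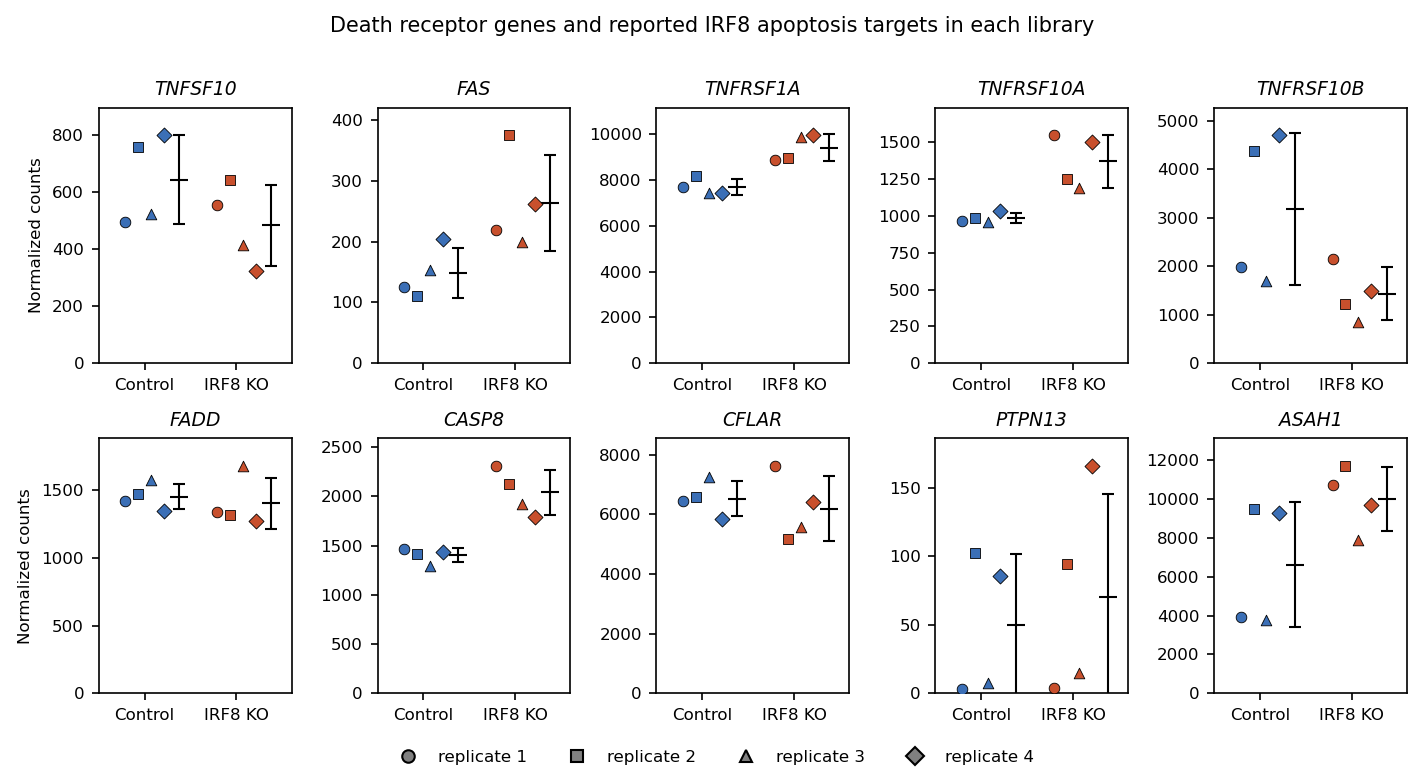
Normalized counts of each of the 10 genes (vertical axis of each panel, starting at 0) in 4 Control and 4 IRF8 KO libraries. Symbols mark the replicate number, and the bar beside each group shows mean ± SD, which for PTPN13 runs below the axis. CASP8, TNFRSF10A and TNFRSF1A separate the groups without overlap, and PTPN13 separates replicates 2 and 4 from replicates 1 and 3 in both groups.

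Promoter sequences are shown for 3 of the genes, because a transcription factor is what was knocked out and because these 3 differ in whether they hold the letters such factors read. The factors of the IRF family bind the core of the interferon-stimulated response element, GAAA and GAAA spaced by 2 free bases, and, with a partner of the ETS family, composite elements in which GGAA takes the place of the first GAAA (ETS-IRF) or of the last one (IRF-ETS). On 1 strand a stretch of 10 bases can match only 1 of these 3 motifs. RefSeq windows of 300 bases (250 before and 50 after a transcript start, GRCh38.p14) were matched by symbol for 7 of the 10 genes, with 14 windows in all. No window was available for TNFRSF10A, TNFRSF10B or ASAH1, so a called gene and a described IRF8 target were not searched. Both strands were searched, and the capitals mark each match, which on the minus strand reads as the reverse complement. CASP8 is shown as the called gene with a match, TNFSF10 as the ligand with 2 matches, and PTPN13 as a described IRF8 target whose window held none.
CASP8, chr2:201233213-201233512, plus strand: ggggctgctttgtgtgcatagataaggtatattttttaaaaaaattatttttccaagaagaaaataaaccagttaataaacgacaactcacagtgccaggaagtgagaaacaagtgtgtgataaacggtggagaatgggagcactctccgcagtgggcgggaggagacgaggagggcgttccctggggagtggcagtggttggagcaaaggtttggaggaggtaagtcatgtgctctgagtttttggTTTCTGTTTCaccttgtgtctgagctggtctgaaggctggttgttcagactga
TNFSF10, chr3:172523381-172523680, minus strand: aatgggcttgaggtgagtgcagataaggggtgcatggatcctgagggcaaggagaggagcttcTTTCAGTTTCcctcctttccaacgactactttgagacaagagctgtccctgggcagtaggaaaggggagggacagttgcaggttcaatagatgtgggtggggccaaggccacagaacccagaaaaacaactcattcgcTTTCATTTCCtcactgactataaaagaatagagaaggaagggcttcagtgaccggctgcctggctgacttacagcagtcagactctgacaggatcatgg
PTPN13, chr4:86594065-86594364, plus strand: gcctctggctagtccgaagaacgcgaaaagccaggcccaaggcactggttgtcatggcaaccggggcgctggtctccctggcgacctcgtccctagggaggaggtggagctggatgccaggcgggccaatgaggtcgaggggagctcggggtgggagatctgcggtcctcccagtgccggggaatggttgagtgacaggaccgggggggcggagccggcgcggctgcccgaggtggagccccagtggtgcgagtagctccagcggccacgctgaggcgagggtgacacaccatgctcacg
With the start counted as position 1 and no position 0, the CASP8 window held the interferon-stimulated core GAAACAGAAA on the minus strand from -3 to 7, so it lay across the start. A further CASP8 window at chr2:201260286-201260585 held the IRF-ETS element GAAACAGGAA on the plus strand from -46 to -37. The TNFSF10 window held GAAACTGAAA from -187 to -178 and the ETS-IRF element GGAAATGAAA from -49 to -40, both on the minus strand relative to the gene. In all, 3 of the 14 windows held a match of at least 1 of the 3 motifs. Counted for each motif alone, 3.57% of 35116 promoter windows of the same length held the interferon-stimulated core. The ETS-IRF element was in 2.82% and the IRF-ETS element in 2.77% of them. The share of these windows with any of the 3 motifs was not counted, so the 3 of 14 cannot be compared with these shares. A match is a description of the letters, and binding at these windows was not measured here.

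TNFSF10, on chromosome 3, encodes TRAIL, the ligand of the death receptors encoded by TNFRSF10A and TNFRSF10B. Its level was 493.9, 759.1, 525.1 and 800.3 normalized counts in the Control libraries and 556.3, 641.4, 414.4 and 322.7 in the IRF8 KO libraries. The groups overlapped, with Control replicates 2 and 4 high and IRF8 KO replicate 4 lowest. With a log2 fold change of -0.43 (SE 0.26, 95% interval -1.02 to 0.16) it did not pass the test (limma adjusted p = 0.30). Between the groups it differed by -0.08 on the log2 scale within replicates 1 and 3 and by -0.78 within replicates 2 and 4. TNFSF10, whose window shown above holds matches of 2 motifs, was therefore not called in either direction.

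FAS, on chromosome 10, encodes the receptor of Fas ligand. Its level was 125.5, 111.3, 153.6 and 205.3 normalized counts in Control and 219.5, 375.6, 199.1 and 261.7 in IRF8 KO. These rest on fewer reads than the values of the other 3 receptors among the 10 genes, so counting error is larger for FAS. Each IRF8 KO library was above the Control library of the same number, but the groups overlapped, because IRF8 KO replicate 3 lay below Control replicate 4. The log2 fold change of 0.82 (SE 0.27, 95% interval 0.20 to 1.44) did not pass the test with limma (adjusted p = 0.072) or with the replicate block (adjusted p = 0.062). DESeq2 gave an adjusted p of 0.025. Without single libraries the log2 fold change ran from 0.63 to 0.98.

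TNFRSF1A, on chromosome 12, encodes TNF receptor 1, which binds TNF. Its level was 7704, 8188, 7436 and 7440 normalized counts in Control and 8859, 8967, 9896 and 9958 in IRF8 KO. All 4 IRF8 KO libraries were above all 4 Control libraries, and the difference was small, with an IRF8 KO mean 1.22 times the Control mean. An exact two-sided permutation test gave p = 0.029, the smallest that 4 against 4 values allow. The log2 fold change of 0.29 (SE 0.10) did not pass the test across all genes (limma adjusted p = 0.076), whereas DESeq2 gave an adjusted p of 0.006.

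TNFRSF10A and TNFRSF10B encode the signalling receptors of TRAIL (also called DR4 and DR5), which lie in 1 gene cluster on chromosome 8. TNFRSF10A was at 963.7, 987.6, 956.8 and 1032 normalized counts in Control and at 1548, 1249, 1189 and 1499 in IRF8 KO. The Control libraries lay close together, and every IRF8 KO library was above them. On average TNFRSF10A rose by 0.47 on the log2 scale (SE 0.13, limma adjusted p = 0.033), and the difference was 0.50 within replicates 1 and 3 and 0.44 within replicates 2 and 4. The call was not stable to leaving out single libraries. It was lost without any one of the 4 Control libraries or without IRF8 KO replicate 1 or 4, with limma adjusted p-values of at most 0.095 and log2 fold changes between 0.41 and 0.49.

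TNFRSF10B moved the other way. Its level was 1991, 4370, 1685 and 4704 normalized counts in Control and 2148, 1214, 855.8 and 1492 in IRF8 KO. Control replicates 2 and 4 stood far above all other libraries, while Control replicates 1 and 3 lay within the range of the IRF8 KO libraries, so the groups overlapped. The log2 fold change of -1.09 (SE 0.40) did not pass the test (limma adjusted p = 0.096). In the fit that paired libraries by replicate number (the replicate block) the SE was 0.30 and TNFRSF10B was called lower (limma adjusted p = 0.035), where 14.6% of all genes tested were called lower in that fit. The log2 difference was -0.43 within replicates 1 and 3, where IRF8 KO replicate 1 was above Control replicate 1, and -1.75 within replicates 2 and 4.

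The opposite directions of both TRAIL receptors were compared within each library, where the size factor cancels. The log2 ratio of TNFRSF10A to TNFRSF10B was -1.05, -2.14, -0.82 and -2.19 in Control and -0.47, 0.04, 0.47 and 0.01 in IRF8 KO. It was higher in IRF8 KO in 4 of 4 pairs, and the groups did not overlap. The difference between the means, -1.55 ± 0.72 and 0.01 ± 0.39 (SD, n = 4 libraries each), was 1.56. The exact two-sided permutation p was 0.0286, and 0.0715 after Benjamini-Hochberg adjustment over the 5 ratios tested, so it did not pass. The difference was 0.93 within replicates 1 and 3 and 2.19 within replicates 2 and 4. The ratios compare changes, since levels of different genes also depend on transcript length.

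The decoy receptors TNFRSF10C and TNFRSF10D, neighbours of these genes that bind TRAIL without passing on a full death signal, were both lower in IRF8 KO cells. TNFRSF10D was at 2911, 3610, 2605 and 2567 normalized counts in Control and at 895.1, 695.8, 539.0 and 421.0 in IRF8 KO, with no overlap. Its IRF8 KO mean was 21.8% of the Control mean (log2 fold change -2.24, SE 0.24, limma adjusted p = 0.00042). TNFRSF10C was at 59.5, 118.2, 46.2 and 92.3 normalized counts in Control and at 9.6, 11.5, 10.8 and 28.5 in IRF8 KO, again with no overlap (log2 fold change -2.36, SE 0.44, limma adjusted p = 0.0066). Both decoy receptor calls held without any single library. The 436 genes tested on chromosome 8 had a median log2 fold change of 0.09. The 4 genes are similar in sequence, and the treatment of reads shared between them in the authors' counting is not described.

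**Figure D2:**
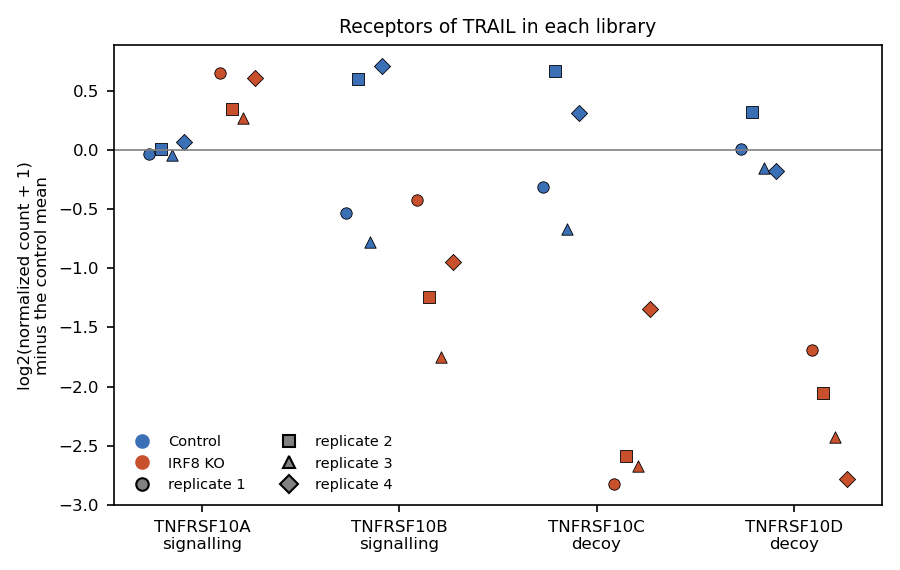
The 4 TRAIL receptor genes in each library, as log2(normalized count + 1) minus the mean of the Control libraries (vertical axis), with the group shown by colour and the replicate number by symbol. TNFRSF10A lies above the Control libraries in all 4 IRF8 KO libraries, TNFRSF10B spreads widely in Control, and both decoy receptors lie below the Control libraries in all 4 IRF8 KO libraries.

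FADD on chromosome 11, the adaptor that links the receptors to CASP8, showed no detectable difference. Its level was 1418, 1467, 1574 and 1348 normalized counts in Control and 1340, 1319, 1681 and 1271 in IRF8 KO. The groups overlapped, and IRF8 KO replicate 3 was the highest of the 8 libraries. Its log2 fold change was -0.06, with a 95% interval of -0.34 to 0.23 (limma adjusted p = 0.82).

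CASP8, the initiator caspase of the pathway, had the lowest adjusted p of the 10 genes. Its level was 1465, 1420, 1295 and 1434 normalized counts in Control and 2312, 2128, 1924 and 1795 in IRF8 KO. The highest Control library lay below the lowest IRF8 KO library. The IRF8 KO mean was 1.45 times the Control mean (log2 fold change 0.53, SE 0.12, limma adjusted p = 0.015), with 0.61 within replicates 1 and 3 and 0.45 within replicates 2 and 4. It was called without each of the 8 libraries in turn (limma adjusted p from 0.020 to 0.049). CASP8 is the gene whose window above holds a match across the start.

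CASP10, the related initiator caspase next to CASP8 and CFLAR on chromosome 2, was at 553.5, 853.1, 572.4 and 884.1 normalized counts in Control and at 983.6, 1096, 977.7 and 1026 in IRF8 KO. All IRF8 KO libraries were above all Control libraries. Its log2 fold change of 0.54 (SE 0.18) did not pass the limma test (adjusted p = 0.075) and passed it with the replicate block (adjusted p = 0.032).

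CFLAR, which encodes the inhibitor c-FLIP, was at 6449, 6580, 7252 and 5839 normalized counts in Control and at 7642, 5181, 5575 and 6405 in IRF8 KO. The groups overlapped, and the log2 fold change was -0.09 with a 95% interval of -0.41 to 0.24 (limma adjusted p = 0.75). Set against CASP8 within each library, the log2 ratio of CFLAR to CASP8 was 2.14, 2.21, 2.48 and 2.03 in Control and 1.72, 1.28, 1.53 and 1.83 in IRF8 KO. It was lower in IRF8 KO in 4 of 4 pairs with no overlap between the groups, from 2.21 ± 0.20 to 1.59 ± 0.24 (SD, n = 4 libraries each). The difference of -0.62 had an exact two-sided permutation p of 0.0286, and 0.0715 after adjustment over the 5 ratios, which did not pass.

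The other ratios overlapped between the groups. The log2 ratio of FAS to TNFRSF1A differed by 0.53 (exact permutation p = 0.20, adjusted 0.25). That of TNFSF10 to TNFRSF10B differed by 0.66 and was higher in IRF8 KO in 4 of 4 pairs (exact permutation p = 0.143, adjusted 0.238). That of PTPN13 to FAS differed by -0.30 (exact permutation p = 0.80, adjusted 0.80).

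**Figure D3:**
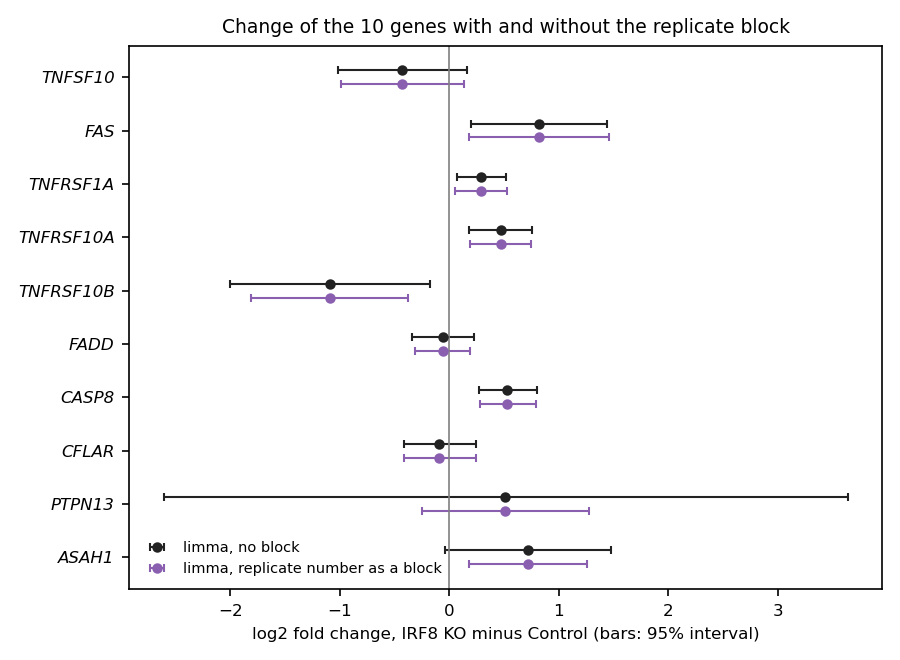
Log2 fold change of each of the 10 genes, IRF8 KO minus Control (horizontal axis), with 95% intervals from limma without (black) and with (purple) pairing by replicate number. The intervals of CASP8, TNFRSF10A, FAS and TNFRSF1A lie above 0 in both fits, that of TNFRSF10B lies below 0 in both, and the block narrows the interval of PTPN13 most.

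PTPN13 on chromosome 4, the phosphatase that binds the tail of Fas, varied by replicate number far more than by genotype. Its level was 3.2, 102.6, 7.5 and 85.7 normalized counts in Control and 4.3, 94.6, 14.9 and 166.3 in IRF8 KO. Replicates 2 and 4 were high and replicates 1 and 3 near 0 in both groups, and the groups overlapped. The log2 fold change of 0.51 had an SE of 1.38 (limma adjusted p = 0.85) and turned to -0.32 without Control replicate 1 and to -0.25 without IRF8 KO replicate 4. With the replicate block the SE was 0.32, and it was still not called (limma adjusted p = 0.28). Replicates 2 and 4 exceeded replicates 1 and 3 by 3.98 on the log2 scale in Control and by 3.79 in IRF8 KO, the difference ranked 39 of 13110 genes by size. The labels do not say what the replicate numbers mark, so this split is given as a description.

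ASAH1, on chromosome 8, encodes acid ceramidase, which breaks down the lipid ceramide in lysosomes. Its level was 3928, 9496, 3768 and 9278 normalized counts in Control and 10709, 11709, 7871 and 9698 in IRF8 KO. Every IRF8 KO library was above the Control library of the same number, and the groups overlapped, since Control replicates 2 and 4 lay above IRF8 KO replicate 3. Its log2 fold change of 0.72 (SE 0.34, 95% interval -0.04 to 1.48) did not pass the test (limma adjusted p = 0.18, and 0.054 with the replicate block). It was 1.25 within replicates 1 and 3 and 0.18 within replicates 2 and 4. The count tests gave adjusted p-values of 0.29 (edgeR) and 0.21 (DESeq2). With replicates 1 and 3 against 2 and 4 as a covariate, an alternative chosen after seeing the data, the limma adjusted p was 0.032. Of 13 other fits, this was the 1 that called ASAH1.

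**Figure D4:**
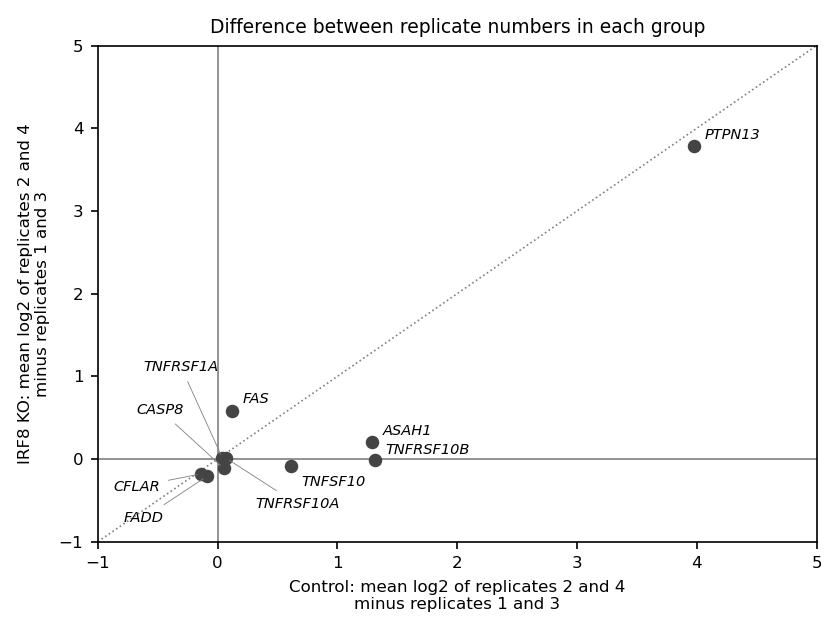
Mean log2 value of replicates 2 and 4 minus that of replicates 1 and 3 in Control (horizontal axis) and in IRF8 KO (vertical axis) for the 10 genes, where the dotted line marks equal differences. PTPN13 lies at 3.98 and 3.79, while ASAH1 and TNFRSF10B differ between these replicates in Control and hardly in IRF8 KO.

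For the 2 called genes, the most alike of all genes tested were found by Pearson's r of log2 values over the 8 libraries, which share the genotype difference. For CASP8 they were CTSS (r = 0.988), CTC1 (r = 0.987) and CD63 (r = 0.982). For TNFRSF10A they were RBMS1 (r = 0.985), PDE3B (r = 0.984) and CPD (r = 0.984). The log2 fold changes of CTSS, CTC1 and CD63 were 0.68, 0.57 and 0.78 (limma adjusted p = 0.005, 0.024 and 0.0035). Those of PDE3B and CPD were 0.52 and 1.34 (limma adjusted p = 0.025 and 0.008), and RBMS1, at 0.29, was not called (limma adjusted p = 0.11).

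The rest of the death receptor pathway was described from a list of 55 other genes, of which 45 passed the filter on low values. Of these, 12 were called (26.7%, against 18.2% of all genes tested), 4 higher and 8 lower, with a median log2 fold change of -0.12. With the replicate block 16 of the 45 were called (35.6%), against 28.7% of all genes tested. Among the ligands, TNF fell. Its level was 9618, 4930, 7133 and 5511 normalized counts in Control and 1077, 1223, 664.9 and 620.7 in IRF8 KO, without overlap. This is a log2 fold change of -2.93 (SE 0.28, limma adjusted p = 0.00032) in the ligand of TNFRSF1A. FASLG, the ligand of FAS, is outside the rule for named genes and was named after its values were seen. It was listed at 0 in 6 of the 8 libraries and at most at 1.9 normalized counts.

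Among the other receptors 1 of 4 tested was called. TNFRSF21 (death receptor 6) ran from 656.4 to 1209 normalized counts in Control and from 318.6 to 618.9 in IRF8 KO (log2 fold change -1.18, SE 0.28, limma adjusted p = 0.020). Among the adaptors and initiators RIPK1, a kinase recruited to TNF receptor 1, was the 1 of 6 called. It was at 657.2, 733.2, 701.2 and 669.4 normalized counts in Control and at 1112, 1069, 891.1 and 924.7 in IRF8 KO, without overlap (log2 fold change 0.53, SE 0.13, limma adjusted p = 0.020). TNFRSF21 lost its call without Control replicate 1 or 3 or IRF8 KO replicate 1 or 4 (adjusted p of at most 0.056), and RIPK1 without Control replicate 1, 3 or 4 or IRF8 KO replicate 1 (at most 0.062).

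In the group of ubiquitin and kinase control 3 of 16 genes were called. BIRC3, an inhibitor of apoptosis with ubiquitin ligase activity, was at 9.7 to 15.1 normalized counts in Control and 26.6 to 43.3 in IRF8 KO (log2 fold change 1.36, SE 0.30, limma adjusted p = 0.014). SPATA2, which links the deubiquitinase CYLD to the TNF receptor complex, and ITCH, a ubiquitin ligase described to act on c-FLIP, fell with log2 fold changes of -1.19 (SE 0.17) and -1.05 (SE 0.16), at limma adjusted p = 0.0019 and 0.0031. Both lie on chromosome 20, where the median log2 fold change of 351 tested genes was -0.92, so neither stood far from its chromosome. The medians of the chromosomes that hold the 10 genes lay between 0.00 and 0.09.

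Of the executioners and mitochondrial genes 2 of 10 were called, 1 in each direction. APAF1, the scaffold of the apoptosome, fell by 0.83 on the log2 scale (SE 0.22, limma adjusted p = 0.030), and its call was lost without Control replicate 1, 3 or 4 or IRF8 KO replicate 4 (at most 0.080). MLKL, the membrane effector of necroptosis, was at 1064, 558.9, 931.1 and 495.3 normalized counts in Control and at 2441, 1339, 2224 and 1069 in IRF8 KO, so that each IRF8 KO library was above the Control library of its number. Its log2 fold change was 1.21 (SE 0.34, limma adjusted p = 0.040), and the call was lost without Control replicate 2, 3 or 4 or IRF8 KO replicate 1 or 3 (at most 0.10), without the trended prior variance (0.052) and with library weights (0.09). PEA15, a death effector domain protein that can bind FADD and CASP8, fell from 8054 to 8750 normalized counts in Control to 4095 to 6004 in IRF8 KO (log2 fold change -0.88, SE 0.14, limma adjusted p = 0.0035).

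**Figure D5:**
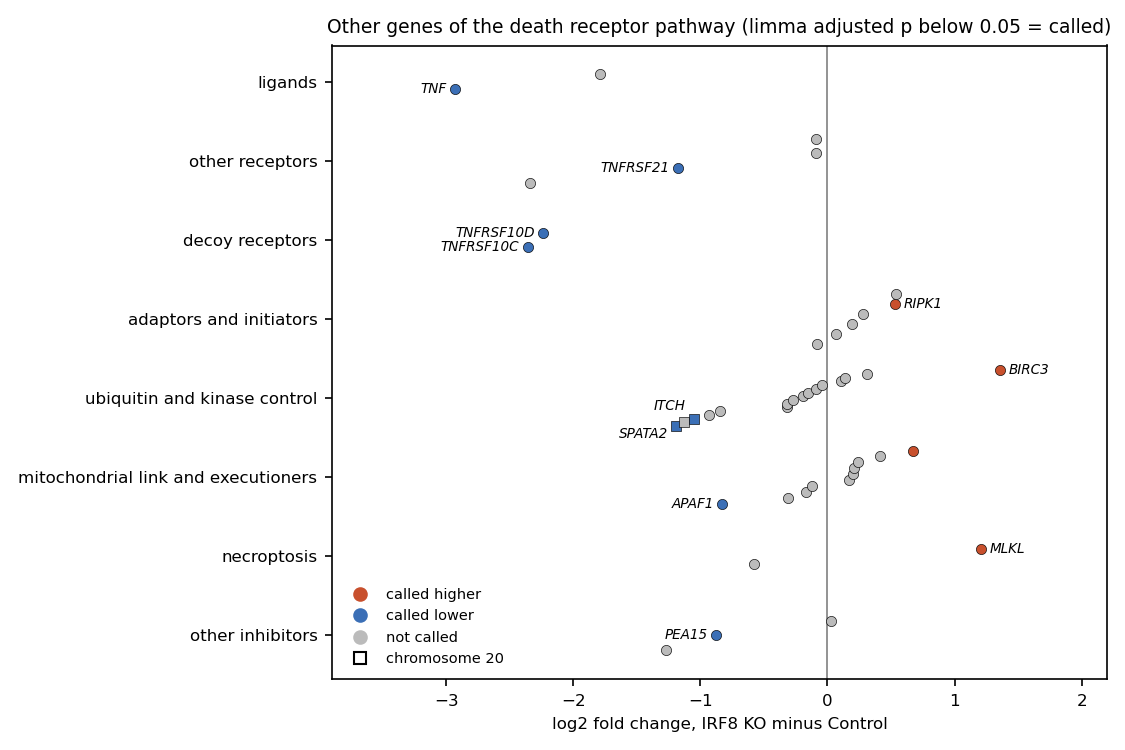
Log2 fold change, IRF8 KO minus Control (horizontal axis), of the 45 other death receptor pathway genes tested, grouped by role (rows). Colours mark the 4 genes called higher and the 8 called lower, and squares mark genes of chromosome 20, whose median was -0.92.

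ASAH1 was set beside 33 other genes of ceramide metabolism, of which 28 were tested and 8 called (28.6%, against 18.2% of all genes tested), 4 higher and 4 lower, with a median log2 fold change of -0.14. With the replicate block 12 of the 28 were called (42.9%, against 28.7%). The 3 called genes among the 4 that use ceramide or turn it into other lipids were all lower (UGCG, SGMS2 and CERK). CERK, the ceramide kinase gene, had a log2 fold change of -0.68 (SE 0.18, limma adjusted p = 0.035), and it is outside the rule for named genes and was named after its values were seen. None of the 2 other ceramidases tested was called. UGCG, which makes glucosylceramide, was at 5379, 6857, 4783 and 6608 normalized counts in Control and at 1249, 1449, 1045 and 1067 in IRF8 KO, without overlap (log2 fold change -2.29, SE 0.16, limma adjusted p = 6.6e-05). SGMS2, a sphingomyelin synthase, fell by 1.65 on the log2 scale (SE 0.37, limma adjusted p = 0.016), and SMPD3, a neutral sphingomyelinase that releases ceramide, fell by 1.78 (SE 0.33, limma adjusted p = 0.0063). PSAP, whose saposins assist lysosomal enzymes including acid ceramidase, rose with 8773, 12478, 8009 and 14026 normalized counts in Control and 36765, 31105, 18969 and 23587 in IRF8 KO (log2 fold change 1.34, SE 0.25, limma adjusted p = 0.007). SPTLC3, a subunit of serine palmitoyltransferase on chromosome 20, was at 2.4, 3.5, 6.4 and 5.6 normalized counts in Control and, touching the Control range, at 6.4, 25.8, 65.0 and 66.9 in IRF8 KO (log2 fold change 2.55, SE 0.71, limma adjusted p = 0.039). The SPTLC3 call was lost without any single library other than IRF8 KO replicate 1 (at most 0.10) and that of SGMS2 without Control replicate 4 (0.050).

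PTPN13 was set beside 16 other nonreceptor tyrosine phosphatases, of which 14 were tested and 5 called (35.7%, against 18.2% of all genes tested), 3 higher and 2 lower, with a median log2 fold change of -0.10. With the replicate block 7 of the 14 were called, against 28.7% of all genes tested. PTPN22, a phosphatase of lymphoid and myeloid signalling, was at 204.3, 502.9, 179.3 and 501.8 normalized counts in Control and at 2404, 1003, 1537 and 1257 in IRF8 KO, with no overlap (log2 fold change 2.24, SE 0.41, limma adjusted p = 0.0065). PTPN6, which encodes SHP-1, fell from 23857 to 26009 normalized counts in Control to 11579 to 17647 in IRF8 KO (log2 fold change -0.82, SE 0.14, limma adjusted p = 0.0041). PTPN14 and PTPN18 rose by 0.80 (SE 0.22) and 0.56 (SE 0.14), and PTPN1, on chromosome 20, fell by 0.70 (SE 0.12), all on the log2 scale. PTPN14 lost its call without any single library other than IRF8 KO replicate 3 (limma adjusted p of at most 0.091), and PTPN18 without Control replicate 4 or IRF8 KO replicate 1, 2 or 4 (at most 0.075).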

How the data were processed

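RNA of 4 Control and 4 IRF8 KO libraries was sequenced by the authors from a stranded mRNA library kit. Per the study's methods, the reads were aligned with RNA-Star to GENCODE transcripts, counted per gene with featureCounts and normalized with DESeq2. No source used here states the strand setting of the counting. The deposited signal is, for each of 19590 genes, the read count divided by the authors' size factor for that library. In all, 2197 genes had no read. Columns named as wild type were taken as the Control libraries of the same number, and 0 columns were left unassigned. The authors' deposited comparison table holds their fold changes and p-values and was not used. The 2 ChIP-Seq samples were not analysed here.

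Expressed in units of 1 read, 100% of the values were whole (tolerance 0.01 reads), with 39560072 to 65519047 reads per library. The depth limits precision mainly for genes near 10 normalized counts. The main test was limma 3.58.1 (R 4.3.3), applied to log2(normalized count + 1) of 13110 genes whose mean reached 10, with a prior variance that followed the mean and was robust to outliers, and Benjamini-Hochberg adjustment over all these genes. Fold changes are on this scale, which understates those of low genes. A gene was called at an adjusted p below 0.05. Single ratios were compared by exact two-sided permutation tests (SciPy 1.17.1). The code was tested on simulated data.

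Neither labels nor methods say what a shared replicate number marks. Deviations from the group means of same-numbered Control and IRF8 KO libraries had correlations over all genes tested of 0.37 (replicate 1), 0.48 (replicate 2), 0.45 (replicate 3) and 0.50 (replicate 4), and the numbers were taken to pair the samples. Replicates 1 and 3 also deviated together (0.41 and 0.47), as did 2 and 4 (0.41 and 0.40), and these sets deviated against each other. For IRF8 KO replicates 1 and 3 these values were above those of the same number (0.37 and 0.45). For IRF8 KO replicates 2 and 4 they were below (0.48 and 0.50). Pairing by number within these sets, as in the replicate block and the counts of pairs, is therefore an assumption.

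The 10 genes and all lists were chosen with earlier results of these data known. Named genes were the 10, IRF8, up to 14 called genes of the pathway list and up to 5 of each other list by absolute log2 fold change, the neighbours TNFRSF10C, TNFRSF10D and CASP10, and the 3 genes most correlated with each of the up to 3 called members. Of the genes of this rule, 1 is not reported here. Of 126 listed genes, 124 matched by symbol, 1 by an older symbol and 1 not at all. Chromosomes and promoters came from RefSeq (GRCh38.p14). Alternatives covered the pseudocount, the filter, the scaling, library weights, no trend, the study's thresholds, the replicate block, count tests of the recovered reads (edgeR 4.0.16, DESeq2 1.42.0) and leaving out each library. The covariate for replicates 1 and 3 against 2 and 4 was chosen after seeing the data.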

Additional observations from a re-analysis of the deposited data

Results flagged for a closer look

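In 68 groups of 4 libraries checked for a single value far from the other three, 5 were flagged by the ratio of the gap to the range (Dixon's test at the 95% level), and chance flags about 1 in 20 groups. FADD stood apart in IRF8 KO replicate 3, at 1681 normalized counts against 1271 to 1340 in the other IRF8 KO libraries. TNFRSF10C was at 28.5 normalized counts in IRF8 KO replicate 4 and at 9.6 to 11.5 in the others of its group. In IRF8 KO replicate 2, SPATA2 was at 427.3 normalized counts, where the others ran from 321.8 to 334.5, and PEA15 was at 6004, where they ran from 4095 to 4220. SMPD3 was at 75.7 normalized counts in IRF8 KO replicate 1 and between 189.6 and 202.6 in the others. The calls of TNFRSF10C, SPATA2, PEA15 and SMPD3 held without each of these libraries.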

How the results depend on the processing

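CASP8 was called under each of 13 other fits and without each library, and TNFRSF10A under each of these 13 fits. Of the 10 genes, the replicate block left 2 called higher and made 1 lower (TNFRSF10B), with 3769 genes called in all instead of 2387. Library weights gave 4 higher (also FAS and TNFRSF1A), with 2870 genes in all, and DESeq2 gave the same 4 higher and 1 lower (TNFRSF10B), with 3402 in all. MLKL was not called without the trend (adjusted p = 0.052) or with library weights (0.09). Replicates 1 and 3 against 2 and 4 as a covariate, added after seeing the data, gave 5 higher and 1 lower of the 10, 4333 genes in all, 15 of ceramide metabolism and 9 phosphatases. The study's thresholds, applied to limma rather than DESeq2 p-values, gave 0 of the 10 higher, 0 lower, 1429 genes in all and 1 phosphatase. Leaving out single libraries gave 1 to 2 of the 10 higher, 0 lower, 1665 to 2442 genes in all, 8 to 13 pathway, 6 to 8 ceramide and 3 to 5 phosphatase genes. Without single libraries the log2 fold change of PTPN13 ran from -0.32 to 1.41, reversing to -0.32 without Control replicate 1 and to -0.25 without IRF8 KO replicate 4, and the difference in the log2 ratio of PTPN13 to FAS ran from -1.07 to 0.53, above 0 without Control replicate 2 (0.53), Control replicate 4 (0.15) or IRF8 KO replicate 1 (0.52). The cause was not tested. Without a library, 3 against 4 values allow no exact p below 0.057. Counting error weighs most on PTPN13, BIRC3, SPTLC3 and TNFRSF10C, and GC content was not tested.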
